A study of Mus musculus with 16 samples.

Results

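The step from 2 to 8 h of T-cell receptor stimulation in wild-type (WT) regulatory T cells was measured by comparing 2 RNA-seq libraries of 8 h with 2 libraries of 2 h. These 4 libraries were chosen by their titles out of 16 in the series, and 11319 of 27802 features, those reaching 10 in 2 or more of the 4, were tested. The cells were sorted from C57BL/6 mouse spleen as CD4-positive with high CD25, and all 4 libraries came from cells kept on plates coated with 1 µg/ml of the CD3 antibody 145-2C11. The other 12 libraries hold WT cells without stimulation (0 h) and at 24 h, and cells of mice with a knockout of Sh2d2a (KO) at 0, 2, 8 and 24 h, with 2 libraries in each group. KO cells carry the knockout in the same strain and were matched for sex and age, and the labels do not give an age, a sex or the number of mice behind a library. Nothing says that the libraries of a pair came from separate mice, so the spread behind each p-value is that between libraries and could be technical. All 4 libraries of the step were stimulated and none was kept for 8 h without antibody, so time on the antibody and time in culture cannot be told apart.

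Regulatory T cells are the CD4-positive T cells that restrain other lymphocytes, and they depend on the transcription factor Foxp3. An antibody to CD3 engages the receptor complex, whose signal runs through the kinases Lck and Zap70 to calcium, MAP kinase and NF-kappaB pathways. In T cells generally, a first set of immediate early genes, such as those of the Egr and Nr4a families, appears within the first hours and is often short-lived. Later sets include receptors, cytokines, metabolic enzymes and the machinery of cell division, so an interval from 2 to 8 h lies where the early set usually gives way to later ones. Sh2d2a encodes TSAd, an adaptor that binds Lck.

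None of these genes could be followed by name, because the listed identifiers did not go with the values. The rows listed as Cd4, Ptprc, Gapdh and Rplp0 were at 0 in all 4 libraries, although Cd4 was used to sort the cells and the other genes are active in all T cells. The row listed as Foxp3 had a mean normalised count of 0.69 over the 4 libraries, whereas that listed as Cd79a, a B-cell gene, had 1033. Of 10 listed T-cell genes 3 had a mean under 10, and of 8 listed genes that every cell uses 4 did. The row of Sh2d2a had a mean of 0.26 and checks nothing. Features are therefore unnamed below, ranked by size of change, and the 4 identifiers printed only mark rows. In bulk RNA a change per cell and a change in the share of cells of a type cannot be told apart.

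Values are normalised counts, that is, whole reads divided by 1 factor per library. The libraries held 4151295 and 7547351 reads at 2 h, and 5435682 and 6366106 at 8 h. The limit that a count of 0 allows, 3 reads, is 1.77 to 3.14 normalised counts in the libraries of 2 h and 2.06 to 2.39 in those of 8 h, for counting error only. The libraries of a pair differed by more than sampling noise, with a chi-square over degrees of freedom of 9.51 at 2 h and 8.61 at 8 h. The KO libraries of the same times were shallower on the whole, at 2065662 to 5907998 reads.

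Between 2 and 8 h, 24 features rose and 1 fell. The 25 are 0.221% of the tested features by limma (Benjamini-Hochberg adjusted p up to 0.05), with 0.212% higher and 0.00883% lower at 8 h. The rises were moderate, with log2 changes of 0.47 to 1.60 and a median of 0.85, and 8 of them were of 1 or more. The single fall was far larger, at -4.29. At an unadjusted p under 0.05 there were 504 features, 306 higher and 198 lower, which is 4.45% of those tested. With no change in any feature a share of about 0.05 would pass, so this count does not show further changes. The same step in KO had 621. The plot of change against level shows most rises at means above 100 and the fall by itself.

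**Figure D1:**
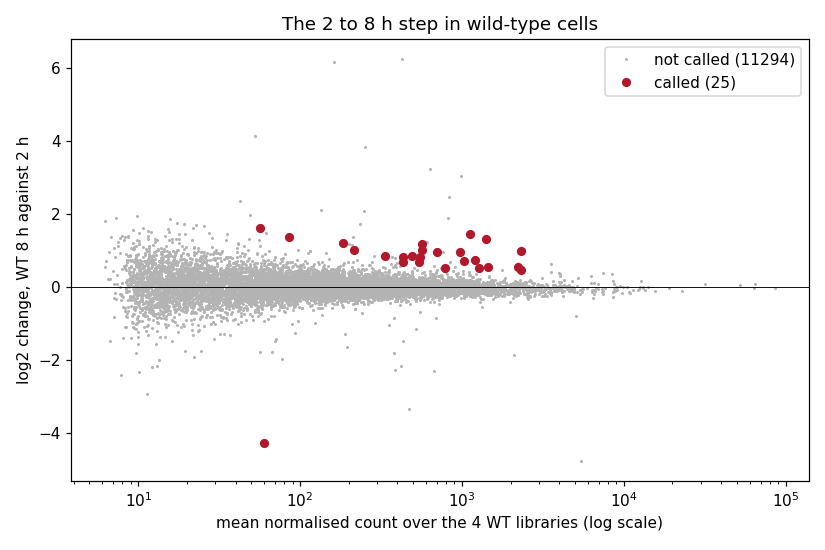
Each point is 1 of 11319 tested features, with its mean normalised count over the 4 WT libraries on a log axis and its log2 change from 2 to 8 h. The 25 called features are in red, 24 above 0 and 1 at -4.29. Some grey points have larger changes than the red ones and did not pass.

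The count of calls depended on single libraries. Without the first library of 8 h only 7 features were called, without the second 11, 13 when the second of 2 h was left out and 22 when the first was. The direction moved too: 38.5% of the 13 and 22.7% of the 22 were lower at 8 h, against 4% of the 25. Only 3 rises, ranked 4, 9 and 10, were called without each of the 16 libraries in turn, and the rise ranked 7 lost its call only without the second library of 8 h (limma adjusted p = 0.184). The fall and 7 rises lost theirs without any one of the 4 libraries compared. With 1 library left in a group, that library is assumed to vary like the others.

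**Figure D2:**
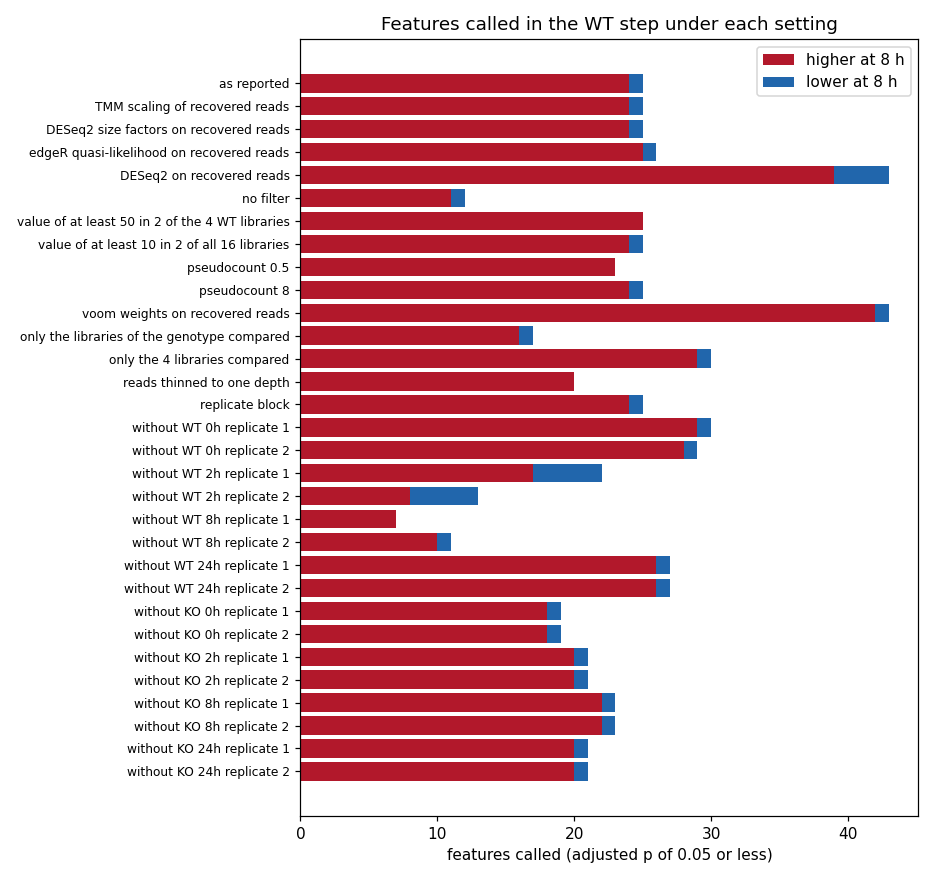
Bars give the number of features called in the WT step, higher at 8 h in red and lower in blue, as reported and under 30 other settings. The shortest bar is that without the first library of 8 h, at 7, and the longest are those of DESeq2 and of voom weights, at 43 each.

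The fall, in the row listed as ENSMUSG00000041009, was a feature present in WT cells at 2 h and nearly absent otherwise. Its normalised counts at 2 h were 96.4 and 134.7, from 92 and 228 reads. At 8 h they were 3.2 and 4.8, from 4 and 7 reads. Both libraries of 2 h thus stood far above both of 8 h. This feature met the filter for testing only through its values of 2 h, since both of 8 h were too low. The same values of 2 h enter the tests and the ratio given here, so these are not independent of how the feature was admitted. With no filter the step was still called (limma adjusted p = 0.00863), and the change from 0 to 2 h was not examined in that way. By summed reads at equal depth the ratio of 2 h to 8 h was 29.3, with an exact 95% Clopper-Pearson interval of 16.2 to 59.4 for counting error only. In the other 14 libraries of the series it lay between 0 and 4.9. Among WT libraries it was higher at 2 h than at 0 h, by 4.66 on the log2 scale (limma adjusted p = 0.00554, where 0.0972% of features were called), in a test that shares the libraries of 2 h. The 14 libraries include both KO libraries of 2 h, at 1.1 and 1.5, so the level at 2 h was seen in WT libraries alone among these 16. Its log2 change from 2 to 8 h was -4.29 ± 0.82 in WT (SE; limma adjusted p = 0.0154) and -0.34 in KO. The difference between those steps did not pass the test (limma adjusted p = 0.913). The call was lost without any one of the 4 libraries (limma adjusted p of 0.0940 to 0.311), with a pseudocount of 0.5 (0.339), with a filter at 50 (0.144) and with reads thinned to one depth (0.0750).

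No other fall passed. Among features with a mean of at least 20 and libraries that did not overlap, the largest change downward was not that of the called feature. It belonged to a feature with 8577 and 6968 normalised counts at 2 h and 6243 and 11.01 at 8 h, a change of -4.76 ± 5.09 (SE) set by 1 library. The WT means of this feature were 8480 at 0 h and 4.96 at 24 h, and its KO means 6615 at 2 h and 6031 at 8 h. Another went from 94.3 and 1431 to 88.4 and 72.3, again set by 1 library. One more had a clean separation at low level, 32.5 and 39.6 against 11.2 and 5.5, and a step of -1.93 ± 0.55 in log2 (SE; limma adjusted p = 0.270). Features at least 2-fold lower with libraries apart numbered 59 and those at least 2-fold higher 96, at median levels of 15.4 and 17.6. Libraries that do not overlap were common: 1929 features (17% of those tested) had both libraries of 8 h above both of 2 h, and 1820 (16.1%) had them below.

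Among the 24 rises, all had both libraries of 8 h above both of 2 h. The largest rise, in the row listed as ENSMUSG00000092244, had normalised counts of 19.9 and 36.0 at 2 h and 82.1 and 88.8 at 8 h. It was at 27.6 and 45.3 at 0 h and at 136.2 and 132.9 at 24 h. WT levels thus stayed in the same range over the first 2 h, were higher by 8 h and higher again at 24 h. The change from 8 to 24 h did not pass (limma adjusted p = 0.553). KO libraries of 2 and 8 h lay between 34.2 and 36.9, from 16 to 49 reads each. Those of 0 h were at 28.7 and 42.2, and those of 24 h at 43.1 and 41.8. The WT step was 1.60 ± 0.34 on the log2 scale (SE; limma adjusted p = 0.0265) and the KO step -0.04. The WT call was lost without the first library of 2 h (limma adjusted p = 0.591), without either of 8 h (0.349 and 0.397), with thinned reads (0.423) and with no filter (0.0943).

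The rise ranked second, in the row listed as ENSMUSG00000020978, was of a more abundant feature. Its values were 664.4 and 521.0 at 2 h and 1901 and 1374 at 8 h. Unstimulated WT cells had 408.4 and 622.3, and those of 24 h 3561 and 2578, so nearly all of its course lay after 2 h. All 8 KO libraries lay between 506.3 and 729.1, below every WT library of 8 and 24 h. Its step was 1.46 ± 0.23 in WT (SE; limma adjusted p = 0.0267) and 0.33 in KO. This call was near the threshold, and without 1 of the KO libraries, which enter only through the shared variance, the limma adjusted p was 0.0512 to 0.0848. It was 0.0816 and 0.263 without the first and the second library of 2 h, 0.123 without the first of 8 h, 0.0583 with edgeR and 0.614 with WT libraries alone.

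Next came the features whose calls held without each library in turn. The rise ranked 4 had 959.9 and 669.8 at 2 h and 2242 and 1758 at 8 h, with 734.4 and 678.9 at 0 h and 3472 and 3586 at 24 h. Its log2 change was 1.31 ± 0.15 (SE; limma adjusted p = 1.19e-05). The pair of 2 h was spread more widely than that of 0 h, and it still lay wholly below that of 8 h. The rise ranked 9 was the most abundant of the 24 at 8 h, going from 1620 and 1489 to 2985 and 3116, and it reached 6175 and 5415 at 24 h. At 0 h it had 1369 and 1636, so its libraries of 0 and 2 h overlapped. The rise ranked 10 had 661.2 and 653.3 at 2 h, 1209 and 1346 at 8 h, and 672.0 and 646.5 at 0 h. It went no further than 1579 and 1548 by 24 h. Their log2 changes were 0.97 ± 0.12 and 0.95 ± 0.11 (SE; limma adjusted p = 9.04e-06 each). In each of these 3 features the libraries of 0 and 2 h overlapped, and those of 8 h lay above them all.

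For some rises the libraries of 2 h already lay above those of 0 h, although none of the 24 passed the limma test of 2 h against 0 h. The rise ranked 16 had the lowest p of that test, with 584.4 and 656.2 at 0 h and 1010 and 815.1 at 2 h (limma adjusted p = 0.0789). The rise ranked 6 was at 166.3 and 208.5 without stimulation, 322.8 and 371.5 at 2 h, 897.1 and 669.7 at 8 h and 1089 and 854.9 at 24 h, so that its libraries of 0, 2 and 8 h did not overlap (limma adjusted p = 0.214 for 2 h against 0 h). It also rose in KO, where it went from 178.8 and 260.4 at 0 h to 511.1 and 567.6 at 24 h, a change of 1.31 (limma adjusted p = 0.0346), and it is the only one of the 24 called there. The rises ranked 5 and 8 had a similar start, from 60.4 and 77.6 to 144.6 and 82.1, and from 89.0 and 87.3 to 163.5 and 121.7, between 0 and 2 h. By 8 h they were at 260.5 and 248.5, and at 321.1 and 251.9.

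Other rises were no higher, or only slightly higher, at 24 h than at 8 h. The rise ranked 3 went from 48.2 and 44.9 to 137.8 and 110.8 and then stayed at 127.1 and 122.6 at 24 h. The rise ranked 7 had 367.8 and 374.5 at 2 h, 624.7 and 909.2 at 8 h and 809.8 and 705.9 at 24 h, and its 2 h values were below those of 0 h, at 449.3 and 483.3. Both thus had means at 24 h close to those at 8 h. The rise ranked 12 was lower at 2 h than without stimulation, at 189.7 and 291.2 against 379.2 and 405.7, stood at 428.7 and 422.6 at 8 h and was at 249.5 and 307.1 at 24 h. Neither its change from 0 to 2 h (-0.73; limma adjusted p = 0.146) nor that from 8 to 24 h (-0.62; limma adjusted p = 0.114) passed. It was picked out after its values were seen, as the exception among the 24. By the mean of each pair, 21 of the 24 were highest at 24 h and 3 at 8 h, against 33.7% and 18.1% of all tested features. The limma test of 24 h against 8 h called 5 of the 24 higher, a count given without the share over all features. On the log2 scale the change from 8 to 24 h was above 0 in 22 of the 24, against 51.8% of all features. Its median was 0.31 for the 24, against 0.01 over all features. By single tests a further rise after 8 h was therefore not shown for most of the 24.

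**Figure D3:**
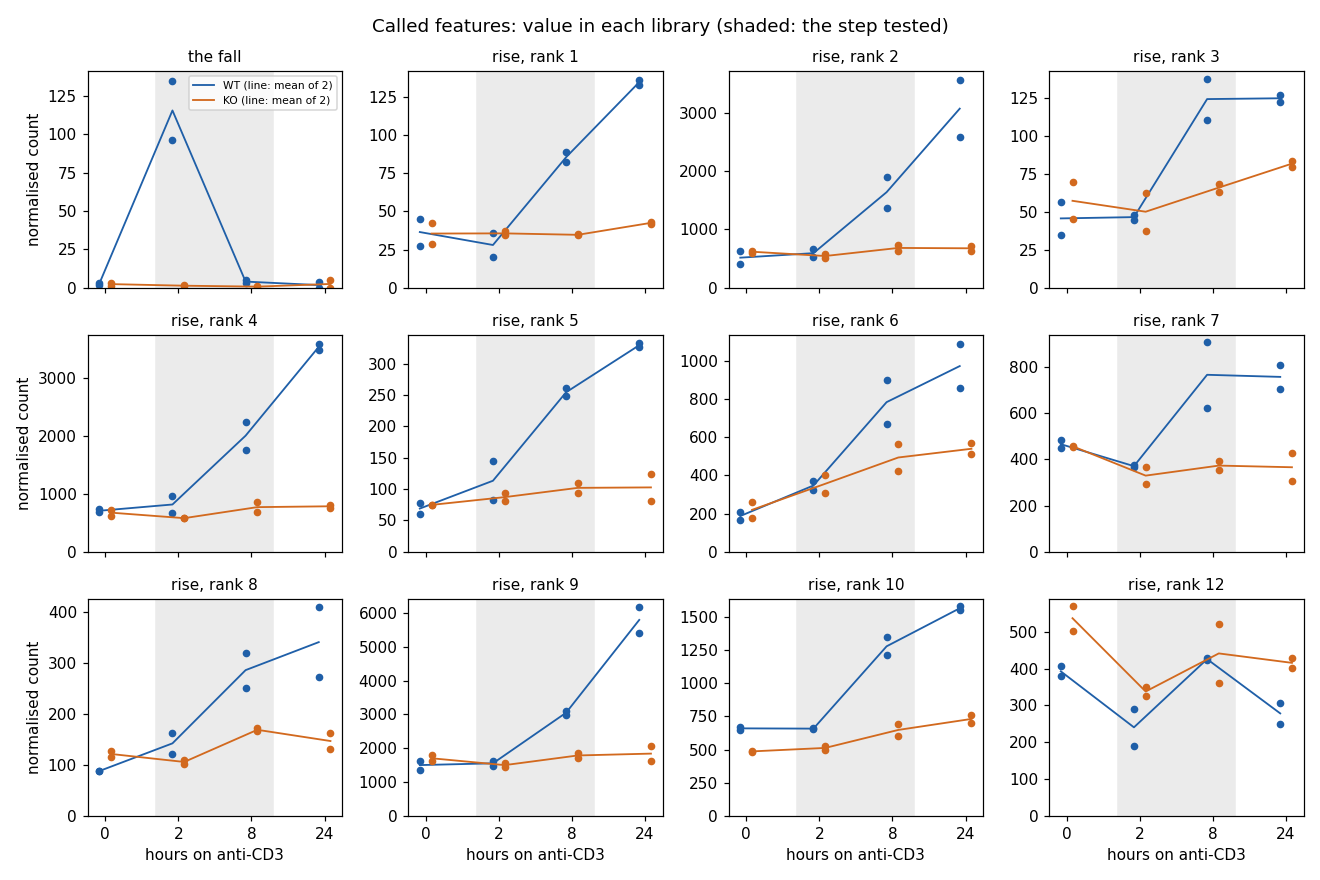
Normalised count of 12 called features in each of the 16 libraries, against hours on the antibody, WT in blue and KO in orange, with points for libraries, lines for the means of 2 and the tested interval shaded (times evenly spaced, not to scale). The fall is seen in WT at 2 h only, and the rise ranked 12 turns back after 8 h. For rises ranked 1 to 10 both KO libraries lie below both WT libraries at 8 and 24 h. Those ranked 4, 7, 8 and 10 are apart in this way at 2 h already, and that ranked 10 also at 0 h.

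Just outside the threshold, 9 of the next 10 features by p were also higher at 8 h. The first of them had 431.7 and 265.2 at 2 h and 1546 and 1020 at 8 h, a step of 1.89 ± 0.31 in log2 (SE; limma adjusted p = 0.0627).

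The rises ranked 11 to 24 had log2 changes of 0.47 to 0.94, and those of the lowest ranks were found at high level, where the error is small. The rise ranked 24 went from 1891 and 1975 to 2759 and 2602, a step of 0.47 ± 0.11 in log2 (SE; limma adjusted p = 0.0457), and reached 4388 and 3746 at 24 h. The rise ranked 20 had 2049 and 1564 at 2 h against 2623 and 2625 at 8 h. Over all 24, the median of the means over a pair was 450 at 2 h and 853 at 8 h, against 142 at both times over all tested features.

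Calls were most frequent among features with a mean of 300 or more. Of 824 features with a mean of at least 1000 over all 16 libraries 0.971% were called, of 2490 from 300 to 1000 0.482%, of the 3422 from 100 to 300 0.0584%, and of the 2635 from 30 to 100 0.0759%. The median standard error of the step was 0.11 at the top and 0.54 for the 1948 features under 30. Below 30 only the fall was called.

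Over all features the step was slightly wider than the spread between libraries alone would make it. Its standard deviation was 0.341, against 0.332 obtained from the differences within the pairs, and the gap was widest for features from 300 to 1000, at 0.229 against 0.202. For the KO step the order was reversed, at 0.375 against 0.385, so a gap of the size seen over all features does not show a broad change. The quartiles of the log2 change were -0.14 and 0.15, and 49.3% of features were above 0. The step from the first library of 2 h to the first of 8 h correlated across 11319 features with that between the second libraries at a Pearson r of 0.14. With the numbers crossed r was -0.06. These r values are across features, which share libraries and depth and are not replicates.

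Some features were high in 1 of the 4 libraries alone. With a rule chosen after values were seen, a value of at least 200 and 20 times that of each of the other 3 libraries, 12 features stood out, 7 in the second library of 2 h, 4 in the second of 8 h and 1 in the first of 8 h. One had 2343 in the second library of 8 h and at most 3.5 in any of the other 15. Not all of the 12 were high in a single library of the series. A feature at 3803 in the second library of 8 h reached 10199 outside the step. Those at 976 in the first of 8 h and 1465 in the second of 2 h reached 1374 and 1450 there. Conversely 3 features were as far below the other 3 libraries, 1 in the first library of 2 h and 2 in the second of 8 h. The feature low in the first library of 2 h had 14.7 there and 607 to 1204 in the other 3. Libraries outside the step had 4.4 to 20.6, so for it the low value was the usual level in the series. Of the first kind 5 were tested and none was called, and of the second all 3 were tested and none was called. Their part in the counts above was not tested.

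The same step in KO cells uses other libraries. There 1 feature was called (0.00883%), lower at 8 h, with 621 at an unadjusted p under 0.05 by limma. It is in the row listed as ENSMUSG00000068663 and had 39.9 and 29.4 in KO at 2 h and 2.2 and 2.9 at 8 h, the latter from 1 and 2 reads. At equal depth the ratio of 2 h to 8 h was 12.9, with an exact 95% Clopper-Pearson interval of 4.25 to 64.1 for counting error only (limma adjusted p = 0.00568). In WT it was at 15.7 and 26.0 and then at 31.9 and 50.2, with no change called. It is also the only feature called in the test of the difference between the steps (0.00883%; limma adjusted p = 0.0230). By that test 433 features had an unadjusted p under 0.05. Its KO call was lost with edgeR (adjusted p = 0.157), with DESeq2 (0.309), and by limma with voom weights (0.998), thinned reads (0.226), the 4 KO libraries alone (0.151), all KO libraries alone (0.0727) and when the first KO library of 2 h was left out (0.132).

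None of the 24 rises of WT cells was called in the KO step, and their KO changes were small and mostly of the same sign. The KO change was above 0 in 21 of 24, against 48.4% of all tested features, with a median of 0.21 against -0.01. Both KO libraries of 8 h were above both of 2 h for 16 of the 24, against 16.8% of all features. The largest KO changes were 0.67 for the rise ranked 8, from 109.6 and 102.5 to 172.5 and 165.9, and 0.59 for that ranked 13, from 223.7 and 243.3 to 364.6 and 341.9. Over the 11319 features, the steps of WT and KO had a Pearson r of 0.00, in libraries that differ in depth.

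For each of the 24 the WT step was larger than the KO step, but choosing features in the WT libraries raises their WT values. The test of the difference itself called none of them, with a lowest limma adjusted p of 0.242. The difference for the rise ranked 9 was -0.72 and that for the rise ranked 4 was -0.91 on the log2 scale (limma adjusted p = 0.242 and 0.289). With these libraries a smaller step in KO was therefore not shown for any of the 24 by itself.

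The difference of 24 h from 0 h is made from other WT libraries than the step. It is not fully independent of the calls, because all 16 libraries share 1 estimate of each feature's variance: each feature has the same standard error in both, and on omitting WT library 1 of 0 h the step had 30 calls. The tests with KO libraries share that estimate too. At 24 h against 0 h, 23 of the 24 were higher, against 51.4% of all tested features, with a median log2 change of 1.22 against 0.01. Of these, 22 passed the test as higher, where 4.08% of features did. The other two were the rise ranked 12, at -0.50 (limma adjusted p = 0.0884), and the rise ranked 23, at 0.27 (limma adjusted p = 0.199). In KO the same comparison gave a median of 0.20, with 20 of 24 above 0 against 50.2% of all features and 1 called, where 0.0177% were.

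The genotypes differed in most of these features at 24 h. In KO 21 of the 24 were called lower than in WT, where 3.88% of features were, and the rise ranked 12 was called higher, at 0.58 (limma adjusted p = 0.0450), where 1.78% were. The median log2 difference of the 24 was -1.01, against -0.02 over all features. This comparison shares the WT libraries of 24 h with that of 24 h against 0 h. Both KO libraries lay below both WT libraries for 22 of the 24, against 26.2% of all features. The widest gaps were those of the rises ranked 4 and 2, at -2.17 ± 0.15 and -2.16 ± 0.23 (SE; limma adjusted p = 4.57e-10 and 0.000196). The rise ranked 4 had 810.4 and 757.7 in KO against 3472 and 3586 in WT. Without stimulation none of the 24 was called between the genotypes by limma, where 0.177% were, and the median difference was 0.10, with 13 above 0 and 11 below. Both KO libraries of 0 h lay below both WT libraries for 3 of the 24, against 20.9% of all features, and above them for 7. At 2 h, which shares WT libraries with the step, they lay below for 10, against 19.0%, and above for 3. For those lying above, the share over all features was not counted at either time. By limma none of the 24 was called between the genotypes at 2 h either, so a gap before 8 h was not shown for any of them. At 8 h, in a comparison that shares the WT libraries of 8 h with the step, 15 were called lower in KO, where 0.689% were.

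**Figure D4:**
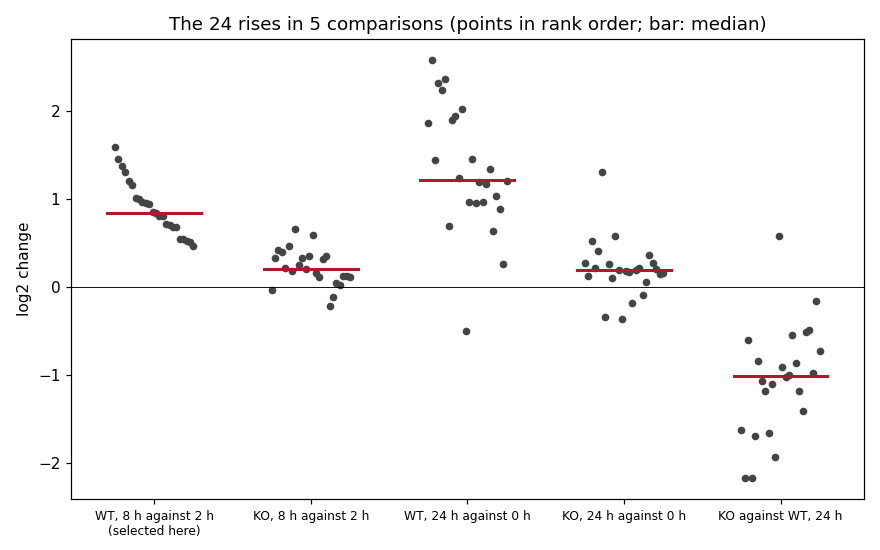
Log2 changes of the 24 rises in 5 comparisons, 1 point for each feature in rank order from left to right and a bar for the median. The medians are 0.85 in the WT step that chose them, 0.21 in the KO step, 1.22 and 0.20 for 24 h against 0 h in WT and KO, and -1.01 for KO against WT at 24 h.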

How the data were processed

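RNA of sorted regulatory T cells was sequenced in 16 libraries. The submitters' processing notes name build GRCm38.p6 and the tools DESeq2, HTSeq and STAR 2.6.0a. Whether counting used strand is not given in the sources used here. The deposited values are a normalised signal: divided by the value of 1 read, 100% of the values above 0 came within 0.01 of a whole read. How the authors set that factor is not stated there either. Each table had 27803 rows, and 1 duplicated row was removed. Symbols were found for 27789 of 27802 identifiers.

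Under R 4.3.3, limma 3.58.1 (trend and robust options on) was run on log2(value + 2), a scale that understates changes of low features. One model had a mean for each of the 8 groups (8 residual degrees of freedom), and p-values were adjusted over the 11319 tested features, which hold 99.6% of the reads. edgeR 4.0.16 (26 calls in the WT step) and DESeq2 1.42.0 (43) were run on recovered reads as alternatives. Others were scaling, filter, pseudocount, weights, samples in the fit, depth, block and leaving out each library. The script was tested on simulated reads. Rows printed by identifier were the 2 largest changes per direction among called features with pairs apart and a mean of at least 20, others up to rank 10 were described by rank, and further ones after their values were seen. The comparison, lists and rules were chosen with earlier results of these data known. Tables and plots were made in Python 3.11.15 with matplotlib 3.10.9.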

Additional observations from a re-analysis of the deposited data

Results flagged for a closer look

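One result drew a closer look because a direct test found that the genotypes differed: the KO step minus the WT step passed for 1 feature, in the row listed as ENSMUSG00000068663, at -3.93 ± 0.68 on the log2 scale (SE; limma adjusted p = 0.0230). Its step was 0.92 in WT and -3.01 in KO, a value that depends on the pseudocount because the KO libraries of 8 h held 1 and 2 reads. The call was lost with edgeR (adjusted p = 0.0672), with DESeq2 (0.130), and by limma with thinned reads (0.439), and when the second WT library of 8 h (0.167), the first of 2 h (0.0587) or the first KO library of 2 h (0.104) was left out.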

How the results depend on the processing

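Relative to 25 calls in the WT step, DESeq2 and voom weights gave 43 each and no filter gave 12, the other settings 17 to 30, and leaving out a library in turn 7 to 30. The share of calls that were lower, 4%, was 0 with a filter at 50, with a pseudocount of 0.5 and with thinned reads, and 0 to 38.5% leaving out a library. The 1 call of the KO step became 0 with edgeR (524 features at an unadjusted p under 0.05), with limma under a filter at 50 (420), voom weights (378), KO libraries alone (501) or thinned reads (580), 2 with DESeq2, 3 with the 4 libraries alone (0 of them shared), and 1 to 18 leaving out a library, the most on omitting KO library 2 of 8 h. The 1 call of the difference became 0 with edgeR (419), with DESeq2 (348), with limma under no filter (753), a filter at 50 (298), voom weights (403) or thinned reads (443), 2 with a pseudocount of 8, and 1 to 8 leaving out a library, the most on omitting WT library 1 of 2 h. The share of called features with the same sign in the KO step, 88% of the 25, was 100% with no filter and 61.5% to 100% leaving out a library. That in WT at 24 h against 0 h, 96% of the 25, was 100% and 77.3% to 100%. Each share was taken over the features called in that setting, 12 with no filter, and not over the same 25. The cause of these changes was not tested, except that fewer libraries or more features entered some fits. Of 806 values of single features 650 kept their side of the threshold, 156 did not and none reversed. Precision was lowest for features under 30, where the median standard error was 0.54. The share of depth in that was not tested.

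The labels give the libraries of each time the numbers 1 and 2 without saying what they share. Deviations of same-numbered libraries correlated between 2 and 8 h at 0.20 in WT and 0.03 in KO, and with only 2 pairs the numbers were not taken to pair the libraries. With the replicate block 25 features were called in the WT step, 24 of them shared, and the rise ranked 6 lost its call (limma adjusted p = 0.126).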
